A study of Rattus norvegicus with 6 samples.

Results

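The genes of the cytosolic ribosomal proteins were compared between spleens of rats with partial portal vein ligation (PPVL) and spleens of sham-operated rats. A gene was included when a transcript cluster on the array, the set of probes that reports 1 transcript region, carried its symbol alone and that symbol began with Rpl or Rps and a digit or was Rplp0, Rplp1, Rplp2 or Rpsa. S6 kinase genes, pseudogene symbols and numbered copies such as Rpl5l1 were left out, and a gene with several clusters was represented by the one with the highest mean. The rule gave 58 of the 18166 genes named on the array. They comprised 35 proteins of the large subunit, 18 of the small subunit, the stalk proteins Rplp0 and Rplp2, the paralogs Rpl3l and Rps4y2, and Rps19bp1, which fits the letters of the rule but is not a ribosomal protein.

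Ribosomes translate every mRNA of the cell, and each is built from ribosomal RNA and one copy of most of these proteins, except for the acidic stalk proteins, which are present in several copies. The small subunit decodes the mRNA, the large subunit joins amino acids, and the stalk on the large subunit recruits elongation factors. Ribosomal protein mRNAs in mammals begin with a run of pyrimidines, the 5′ terminal oligopyrimidine (TOP) motif, through which mTORC1 and Larp1 set how much of the mRNA is translated, so that mRNA level and protein synthesis can move apart.

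The PPVL group consisted of 3 male Sprague-Dawley rats whose portal vein had been narrowed by a calibrated ligature. The sham group consisted of 3 male Sprague-Dawley rats that had the same operation without a ligature. Spleens were taken 10 days after surgery, and total RNA of each was hybridised to an Affymetrix whole-transcript array, 1 per rat. PPVL is a model of portal hypertension without cirrhosis. All samples were whole spleen, so that a change in the cell types present and a change in RNA per cell cannot be told apart. The deposited values are log2 intensities after Robust Multiarray Average (RMA) normalization, and the array medians lay between 6.22 and 6.33.

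The annotated start sites were read for pyrimidine runs, which the rule did not use. Promoter entries of RefSeq (rat assembly GRCr8) were found for 48 of the 58 genes. A C at the first transcribed base followed by 4 or more C or T bases, read on the strand of the transcript, was present in 16 of these 48 (33.3%), against 344 (2.4%) of the 14503 array genes with an entry. The following 6 windows of 30 bases, 15 before and 15 from the annotated start onward, show such starts. Capitals mark the pyrimidines counted, from the first transcribed base onward, and in some windows further pyrimidines stand directly before them.
Rplp0, chr12:46718376-46718405, minus strand: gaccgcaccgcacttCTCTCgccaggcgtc
Rpl10, chrX:157205835-157205864, plus strand: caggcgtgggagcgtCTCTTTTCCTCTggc
Rpl14, chr8:129163605-129163634, plus strand: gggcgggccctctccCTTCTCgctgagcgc
Rpl17, chr18:70856261-70856290, plus strand: tagccttcgcgcttcCTCTTCCTgttagcg
Rps14, chr18:56498245-56498274, plus strand: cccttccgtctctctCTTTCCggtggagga
Rps27, chr2:177964592-177964621, minus strand: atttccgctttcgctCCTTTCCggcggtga
Rps14, a protein of the small subunit platform, and Rps27 were added to this display after their values had been seen.

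Allowing the run to begin anywhere from 10 bases before to 10 bases after the annotated start raised the count to 32 of 48 genes (66.7%), against 27.7% of all array genes with an entry. In the lists nearest to these genes, the shares within 10 bases were 61.5% of 13 other genes with TOP mRNAs and 57.1% of 7 genes listed as elongation factors. None of either list had the run exactly at the annotated start. In 3 genes with a run before the annotated start, the windows read as follows. Capitals mark the stretch counted, from the first C within the 10 bases, and the pyrimidines themselves reach further upstream.
Rpl29, chr8:115947628-115947657, plus strand: gggcctttCTCTTTCTCTTCCggtcccagg
Rps2, chr10:14251833-14251862, plus strand: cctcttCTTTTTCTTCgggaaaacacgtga
Rpl5, chr14:1995211-1995240, minus strand: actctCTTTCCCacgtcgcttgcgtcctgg
The remaining 16 genes had no such run within these limits. Among them were the stalk gene Rplp2, the laminin receptor Rpsa, Rps16 and Rpl11, a protein that binds Mdm2 together with Rpl5. Their windows are shown because the levels of these 4 genes are described below. Those of Rplp2 and Rpsa open with such a run 15 bases before the annotated start, outside the limits.
Rplp2, chr1:205975906-205975935, plus strand: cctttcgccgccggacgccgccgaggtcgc
Rpsa, chr8:128728864-128728893, plus strand: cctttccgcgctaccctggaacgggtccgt
Rps16, chr1:92770643-92770672, plus strand: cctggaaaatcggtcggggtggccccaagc
Rpl11, chr5:153560788-153560817, minus strand: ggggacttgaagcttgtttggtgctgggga
An annotated start can lie several bases from the start used in spleen, which was not measured. The absence of the letters within these limits says nothing of translation control. The promoter entries, 250 bases before to 50 bases after the start, were also searched on both strands for CCGGAAG, the letters of an ETS factor site, and for the TATA box letters TATAAA. The ETS letters or their complement CTTCCGG were found in 13 of the 48 (27.1%), against 12.6% of all array genes with an entry, and TATAAA or TTTATA in 6 (12.5%), against 11.9%. The ETS letters were found in a larger share of ribosome biogenesis genes (43.9% of 41) and of mitochondrial ribosomal protein genes (35.1% of 57). The first 5 letters of CTTCCGG themselves form a C with 4 pyrimidines, and in 3 genes such a match overlapped the pyrimidine run near the start.

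**Figure D1:**
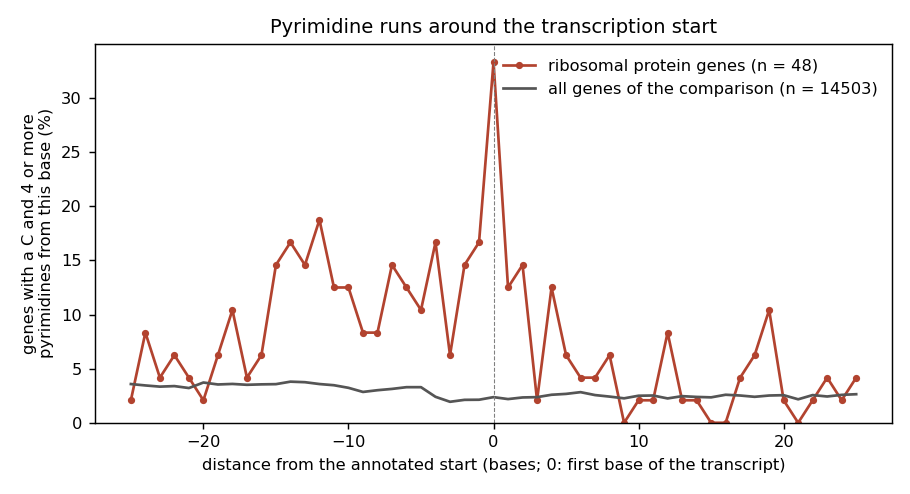
Percentage of genes (y axis) in which a C with at least 4 further pyrimidines begins at each distance in bases from the annotated start (x axis), for 48 ribosomal protein genes (red) and 14503 array genes (grey). The red line peaks at 33.3% at position 0, where the grey line is at 2.4%.

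Ribosomal protein mRNAs did not separate PPVL from sham spleens. None of the 58 genes passed an unadjusted p of 0.05 in limma (lmFit and eBayes), the threshold of the study's methods. Over all 18166 genes 4.23% did (2.69% higher and 1.55% lower in PPVL), and at that share a list of 58 would hold few. Among the 111 genes at least as bright as the median of the 58, ribosomal protein genes and their copies included, 1 passed. After Benjamini-Hochberg adjustment, 0 of the 58 and 0 of all genes passed 0.05. The log2 fold changes of the 58 ranged between -0.27 for Rps16 and 0.21 for Rpl29, and 45 of them were within 0.1 of 0 in either direction. Their median was 0.04 and 38 of 58 (65.5%) were above 0, against a median of 0.0048 and 51.7% above 0 over all genes. In the 111 bright genes the median was 0.0178 and 57.7% were above 0. Without PPVL rat 3 the median of the 58 was 0.0097.

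The precision of these values bounds the changes of cluster signal that could have been missed. In 55 of 58 genes the 95% interval of the difference lay inside a 1.5-fold change in both directions, and in 18 it lay inside a 1.2-fold change. These shares, 94.8% and 31.0%, stood beside 89.9% and 17.4% of all genes. The exceptions to the wider bound were Rpl30, Rpl37a and Rps16. The median SD within groups was 0.096 over the ribosomal protein genes and 0.125 over all genes. Genes of similar brightness gave no separate comparison in these measures, because many of them report ribosomal proteins themselves. Of the 111 genes as bright as the median member or brighter, members included, 94.6% and 44.1% lay inside the 2 bounds, with a median SD of 0.0906. The 29 members among them had 96.6%, 48.3% and 0.0903. The 111 also hold copies and pseudogene symbols of ribosomal proteins, such as Rpl15l3, Rpl5l1 and Rps27a-ps1. The 2 sets of values are therefore partly the same kind of cluster compared with itself. Most of the clusters were bright, with 43 of 58 among the brightest 5% of the 36685 clusters on the array. Whether differences are compressed at that brightness was not tested.

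**Figure D2:**
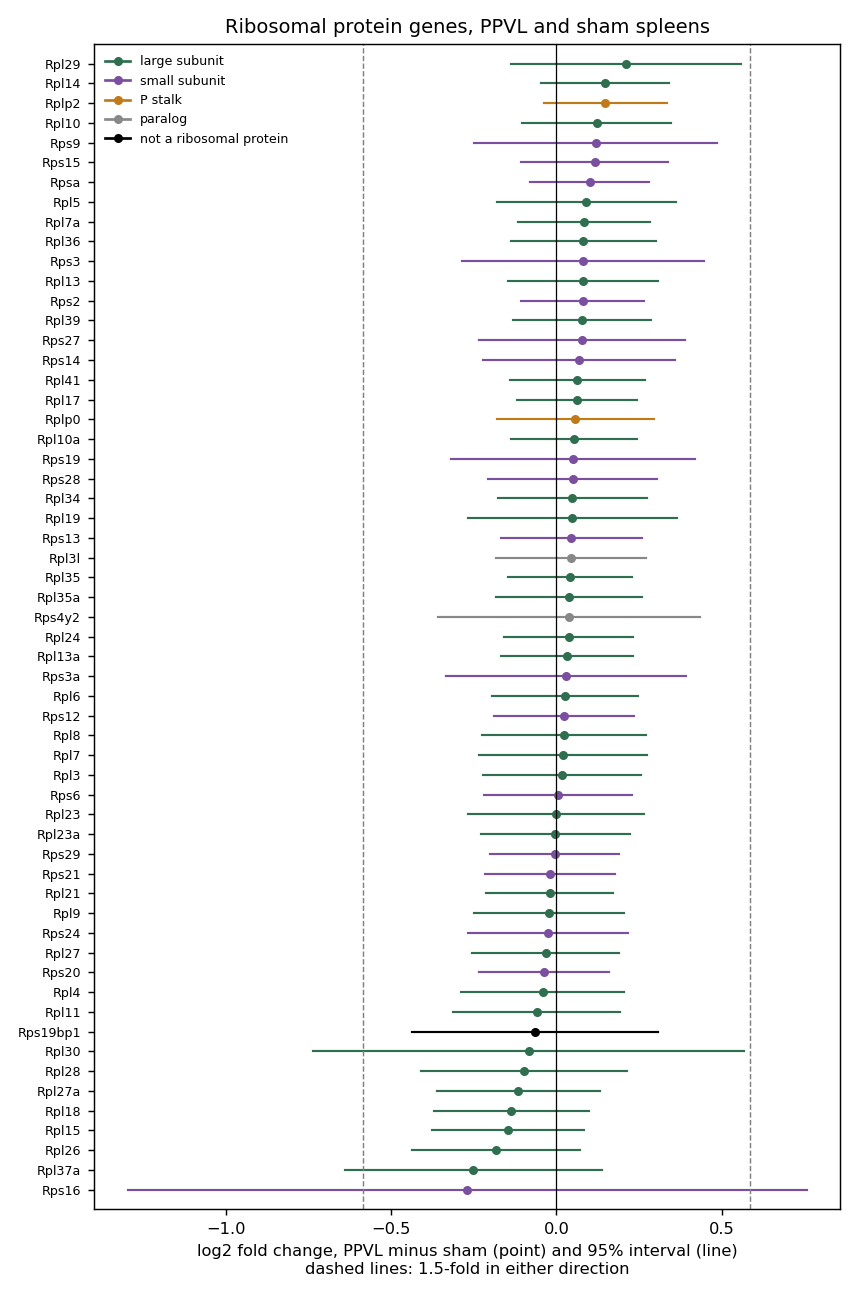
Log2 fold change, PPVL minus sham, of each of the 58 genes (points) with its 95% interval from limma (lines), ordered from highest to lowest and coloured by role; dashed lines mark a 1.5-fold change in either direction. Every interval includes 0, and the interval of Rps16 is the widest, between -1.30 and 0.76.

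By role, the 35 large subunit genes had a median log2 fold change of 0.03, with 21 above 0. The 18 small subunit genes had a median of 0.05, with 13 above 0. These groups were not tested against each other.

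The stalk is formed by Rplp0, which anchors it to the large subunit, and the acidic proteins Rplp1 and Rplp2. Rplp2 had log2 values of 11.92, 11.84 and 11.83 in PPVL spleens, against 11.70, 11.74 and 11.72 in sham spleens. All PPVL rats were above all sham rats, and the difference was 0.15 with an interval of -0.04 to 0.33. Its unadjusted p of 0.104, the smallest of the 58, was an adjusted p of 0.973 in limma, and with a variance trend in the fit the unadjusted p was 0.0424. The 2nd cluster annotated to Rplp2 gave nearly the same picture, with 11.91, 11.81 and 11.79 in PPVL spleens and 11.62, 11.74 and 11.66 in sham spleens. The anchor protein did not separate the groups. Rplp0 had 10.878, 11.030 and 10.911 in PPVL spleens, against 10.901, 11.001 and 10.746 in sham spleens. No cluster carried the symbol Rplp1 alone. The cluster of its copy Rplp1l2 differed by -0.06 (interval -0.34 to 0.21), opposite in sign to Rplp2.

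All 3 PPVL rats were above all 3 sham rats in 6 of the 58 genes, where 6.64% of all genes showed this order. These were Rplp2, Rpl10, Rpl14, Rpl17, Rps2 and Rpsa, of which Rpl17 and Rps2 are named only because of this count. The opposite order was found in 1 of 58, Rpl15, where 4.70% of all genes showed it. With 3 rats in each group, the smallest two-sided p of an exact permutation test is 0.1.

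Rpl14, a protein of the large subunit, had values of 10.47, 10.41 and 10.52 in PPVL spleens and 10.26, 10.34 and 10.36 in sham spleens. Rpsa, a small subunit protein that is also known as a laminin receptor, had 12.87, 12.89 and 12.87 in PPVL spleens and 12.78, 12.74 and 12.80 in sham spleens. The rats of each group lay close together in both genes, but the limma interval of each difference included 0. The differences were 0.15 for Rpl14 (interval -0.05 to 0.34) and 0.10 for Rpsa (interval -0.08 to 0.28). Rpl10, which joins the large subunit late in its assembly, had 11.83, 11.79 and 12.04 in PPVL spleens and 11.79, 11.75 and 11.77 in sham spleens. PPVL rat 3 stood above the rest, and the other cluster annotated to Rpl10 did not separate the groups, with 9.91, 9.84 and 9.94 in PPVL spleens and 9.92, 9.83 and 10.11 in sham spleens. Rpl15 had 6.64, 6.62 and 6.57 in PPVL spleens and 6.91, 6.67 and 6.69 in sham spleens, a difference of -0.15 (interval -0.38 to 0.08), with sham rat 1 standing above the rest.

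Of the genes with the largest positive differences, Rpl29, a large subunit protein that binds heparin, had 11.72, 11.69 and 11.99 in PPVL spleens and 11.78, 11.66 and 11.33 in sham spleens. The difference of 0.21 (interval -0.14 to 0.56) came with overlapping groups, as PPVL rat 3 was the highest and sham rat 3 the lowest of the 6. Rps9, a small subunit protein near the path of the mRNA, differed by 0.12 (interval -0.25 to 0.49) and was among the dim clusters. With 1 rat left out it differed by between 0.0106 (without sham rat 3) and 0.29 (without sham rat 1, unadjusted p of 0.0318 in limma). At the other end, Rpl37a had 6.79, 7.37 and 6.90 in PPVL spleens and 7.16, 7.29 and 7.37 in sham spleens. Its groups overlapped through PPVL rat 2, and the difference was -0.25 (interval -0.64 to 0.14). With 1 rat left out it was between -0.13 (without PPVL rat 1) and -0.43 (without PPVL rat 2, unadjusted p of 0.00921 in limma). Rpl26 differed by -0.18 (interval -0.44 to 0.07), and its cluster was the dimmest of the 58, with a mean of 4.87. Rpl18 differed by -0.14 (interval -0.37 to 0.10).

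Several ribosomal proteins have functions outside the ribosome or a known place in signaling or disease, and none of these passed the test. Rps6, the substrate of S6 kinase and a common readout of mTORC1 activity through its phosphorylation, had 8.29, 8.21 and 8.17 in PPVL spleens and 8.11, 8.21 and 8.34 in sham spleens. Rpl11, which together with Rpl5 and 5S RNA can bind Mdm2 and stabilise p53, had 11.31, 11.44 and 11.50 in PPVL spleens and 11.35, 11.45 and 11.62 in sham spleens. Rps19, the gene most often mutated in Diamond-Blackfan anaemia in humans, had 11.88, 11.96 and 12.28 in PPVL spleens and 12.24, 11.86 and 11.86 in sham spleens. In each the groups overlapped, and the intervals were -0.22 to 0.23 for Rps6, -0.31 to 0.19 for Rpl11 and -0.32 to 0.42 for Rps19. Rpl13a, which takes part in translational silencing of inflammatory mRNAs in human myeloid cells, differed by 0.03 (interval -0.17 to 0.23). Rps3, which lines the mRNA entry channel, differed by 0.08 (interval -0.29 to 0.45).

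The 5 genes with the brightest clusters were Rps29, Rpl23, Rpl21, Rpl34 and Rpl13a. Rps29, a zinc-binding protein of the small subunit, had 13.61, 13.55 and 13.61 in PPVL spleens and 13.52, 13.64 and 13.62 in sham spleens. Rpl23 had 13.09, 13.10 and 13.11 in PPVL spleens and 13.06, 12.93 and 13.30 in sham spleens. The PPVL rats lay within the range of the sham rats in Rpl23, and the groups overlapped in Rps29. Rpl41, the smallest ribosomal protein, had 12.67, 12.71 and 12.81 in PPVL spleens and 12.74, 12.64 and 12.62 in sham spleens. Rpl21 and Rpl34 differed by -0.02 and 0.05.

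Among the members that are not core proteins of the ribosome, Rpl3l, the paralog of Rpl3 found in striated muscle, had 5.32, 5.41 and 5.26 in PPVL spleens and 5.32, 5.16 and 5.38 in sham spleens. Its cluster was below the 40th percentile of mean level, the limit used here for a dim cluster. Rps4y2, a copy of Rps4 that the RefSeq table places on chromosome 4 of the rat, had 6.22, 6.20 and 6.42 in PPVL spleens and 6.46, 6.39 and 5.88 in sham spleens. Neither separated the groups. Rps19bp1 had a difference of -0.06 (interval -0.44 to 0.31).

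**Figure D3:**
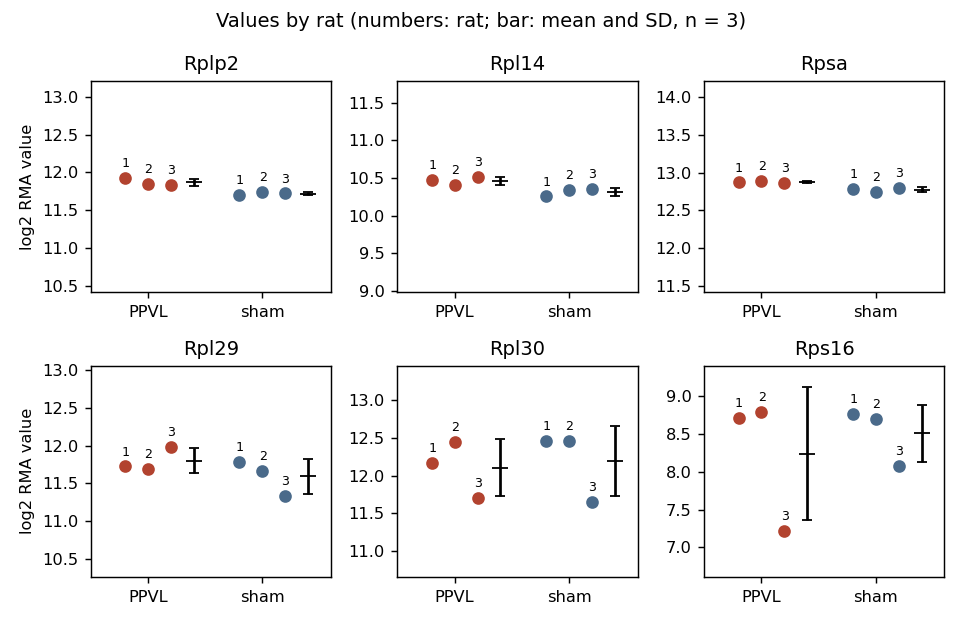
Log2 RMA values (y axis) of 6 genes in 3 PPVL spleens (red, left) and 3 sham spleens (blue, right), with the rat number above each point and the group mean with SD beside the points. Rplp2, Rpl14 and Rpsa are above the sham rats in all PPVL rats by 0.10 to 0.15 on average, Rpl29 overlaps, and Rpl30 and Rps16 are low in PPVL rat 3 and sham rat 3.

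The SD within groups was largest in Rps16 (0.682) and Rpl30 (0.423) among the 58 genes, and Rpl30 is named here after its values had been seen. Rps16, whose protein reaches the decoding centre, had 8.71, 8.79 and 7.22 in PPVL spleens and 8.76, 8.70 and 8.08 in sham spleens. The low values were those of PPVL rat 3 and sham rat 3, so that each group held 1 low rat. The difference was -0.27 (interval -1.30 to 0.76), and without PPVL rat 3 it was 0.24. Rpl30, known in yeast to control the splicing of its own transcript, had 12.17, 12.45 and 11.71 in PPVL spleens and 12.46, 12.46 and 11.65 in sham spleens, with the same 2 rats low. The other cluster annotated to Rpl30 was not low in them, with 11.71, 11.71 and 11.92 in PPVL spleens and 11.74, 11.59 and 11.96 in sham spleens. The 2 clusters of Rpl30 therefore disagreed, and what sets the low values was not tested.

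Rats differed from each other in which genes were high, in a way that crossed the groups. The mean of the 58 genes was 10.66, 10.67 and 10.70 in PPVL spleens and 10.67, 10.66 and 10.65 in sham spleens, a span of 0.048 over all 6 arrays. Taken apart, the means of the subunits differed in which rats were high. The large subunit genes averaged 11.09, 11.10 and 11.13 in PPVL spleens and 11.08, 11.11 and 11.12 in sham spleens, a span of 0.055. The small subunit genes averaged 10.47, 10.50 and 10.53 in PPVL spleens and 10.56, 10.45 and 10.41 in sham spleens, a span of 0.154. By these means, sham rat 1 was the highest and sham rat 3 the lowest for the small subunit. Sham rat 1 was the lowest mean for the large subunit. The small subunit means include Rps16, which was low in PPVL rat 3 and sham rat 3. By the median deviation from each gene's mean, PPVL rat 3 was the highest for the large (0.0523) and the small subunit (0.0927). Lowest by this measure were sham rat 2 for the large (-0.027) and sham rat 3 for the small subunit (-0.0819). In 15 of 58 genes (25.9%) the highest values were those of PPVL rat 3 and sham rat 1, a pair that held the highest values of 5.8% of all genes. Among these were Rps3, Rps19, Rpl29, Rpl41 and Rps4y2. In 12 of 58 (20.7%), Rpl11, Rpl21, Rpl23 and Rps12 among them, the highest values were those of PPVL rat 3 and sham rat 3, against 9.3% of all genes. PPVL rat 3 was the highest of the 6 in 20 genes and the lowest in 2, while sham rat 3 was the highest in 16 and also the lowest in 16. These counts describe the arrays, and they were not tested. Over 6 rats the range stayed under 0.5 in 51 of 58 genes.

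**Figure D4:**
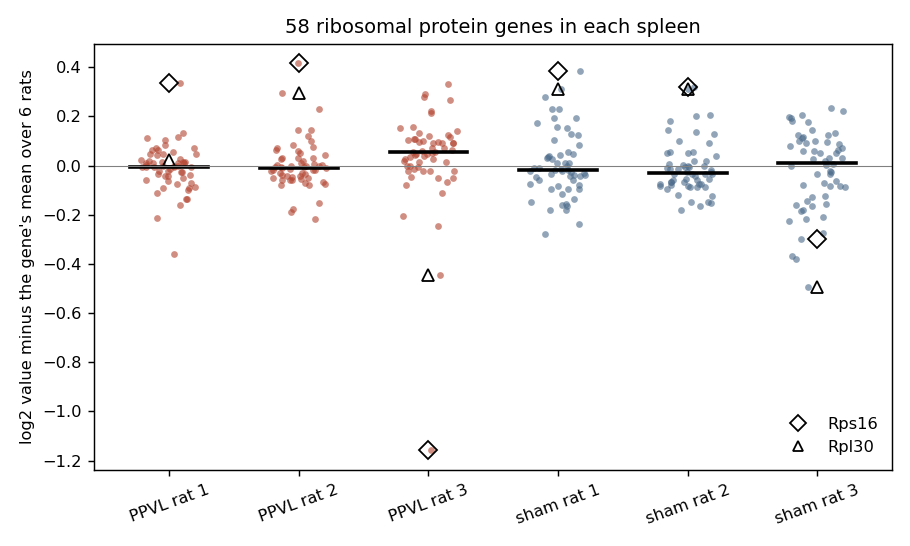
Log2 value of each of the 58 genes in each rat minus the gene's mean over the 6 rats (y axis), for PPVL rats (red) and sham rats (blue); bars are medians, open diamonds Rps16 and open triangles Rpl30. The medians of the 6 rats all lie within 0.1 of 0, while Rps16 and Rpl30 fall well below in PPVL rat 3 and sham rat 3.

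Several lists of cell type markers spanned a wider range over the same arrays. The 7 measured of 12 erythroid markers averaged 8.56, 10.65 and 9.69 in PPVL spleens and 10.66, 10.72 and 9.61 in sham spleens, and 0 of 7 passed the threshold. The 14 measured of 15 genes of dividing cells averaged 8.44, 9.48 and 8.90 in PPVL spleens and 9.64, 9.67 and 8.92 in sham spleens, with 0 of 14 past it. The 19 measured of 21 exocrine pancreas genes averaged 9.75 in PPVL rat 1, where 18 of them were highest. Their averages were between 5.42 and 5.47 in the other PPVL rats, against 5.37 to 5.43 in sham rats. By the threshold 1 of 19, Try10, was higher in PPVL, and it was not highest in PPVL rat 1. It had 7.46, 7.61 and 7.58 in PPVL spleens and 6.86, 7.01 and 7.27 in sham spleens. Of stroma and smooth muscle markers, 5 of 10 were higher in PPVL, with averages of 10.29, 9.40 and 9.21 in PPVL spleens and 8.78, 9.20 and 8.62 in sham spleens. Neutrophil and precursor markers had 2 of 12 higher (Mpo and Prtn3) and averaged between 6.80 and 7.83 in PPVL spleens, against 6.57 to 7.04 in sham spleens. The spans of these means were 2.16 for erythroid markers, 1.22 for dividing cells, 4.38 for exocrine pancreas genes, 1.66 for stroma and 1.26 for neutrophils. They were 0.272 for B cell, 0.266 for T cell, 0.232 for macrophage and 0.294 for plasma cell markers, and all of these lists hold fewer genes than the 58. B cell markers averaged between 10.72 and 10.96 in PPVL spleens and between 10.69 and 10.92 in sham spleens, with 0 of 9 past the threshold. Macrophage markers had 1 of 12 higher (Mertk), and T cell and plasma cell markers had 0 of 12 and 0 of 8.

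Of the genes of the related lists, mitochondrial ribosomal proteins and mTORC1 regulators included, 0 of 158 passed the threshold in either direction. Over all genes 4.23% did. Elongation factors deliver aminoacyl-tRNA and move the ribosome along the mRNA. The list used under this name held 8 genes, not all with these functions, Tpt1 and Eef1e1 among them. Its median log2 fold change was 0.05. Eef2, which drives translocation, averaged 12.32 ± 0.08 in PPVL spleens and 12.20 ± 0.06 in sham spleens (SD, n = 3 each). Of 21 other genes with TOP mRNAs, 15 were measured, with a median of 0.02. Fau, which encodes Rps30 fused to a ubiquitin-like protein, differed by 0.10 (interval -0.14 to 0.35), and Btf3, a subunit of the nascent chain complex, by 0.11 (interval -0.10 to 0.33).

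Ribosome biogenesis genes act in transcription, processing and assembly in the nucleolus. Of the 47 measured of 51, 16 (34.0%) were above 0, against 51.7% of all genes. Their median was -0.04, against 0.0048 over all genes. They averaged 8.67, 8.63 and 8.68 in PPVL spleens and 8.66, 8.69 and 8.76 in sham spleens, with sham rat 3 the highest in 22 of the 47. Nip7, needed for processing of pre-ribosomal RNA, averaged 8.42 ± 0.07 in PPVL spleens and 8.61 ± 0.09 in sham spleens, a difference of -0.19 (interval -0.41 to 0.02). Tsr1, an assembly factor of the small subunit, differed by -0.21 (interval -0.49 to 0.06), and Nop56, a core protein of box C/D particles, by -0.19 (interval -0.43 to 0.05). Myc, the transcription factor that drives ribosome biogenesis genes, differed by 0.19 (interval -0.06 to 0.44).

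Regulators of TOP mRNAs and mTORC1 were measured for 17 of 19 genes, with a median of 0.03. Of these, 14 (82.4%) were above 0, against 51.7% of all genes. They averaged 9.48, 9.46 and 9.42 in PPVL spleens and 9.42, 9.50 and 9.29 in sham spleens. Sham rat 3 was the lowest in 8 of the 17, and sham rat 2 had the highest mean. Akt1s1, an inhibitor in mTORC1 that AKT phosphorylates, averaged 7.98 ± 0.07 in PPVL spleens and 7.79 ± 0.04 in sham spleens, a difference of 0.18 (interval -0.01 to 0.38). Tsc2, an inhibitor upstream of mTORC1, differed by 0.16 (interval -0.04 to 0.36) and Deptor, another inhibitor, by 0.18 (interval -0.12 to 0.47). Phosphorylation and translation were not measured. The 71 mitochondrial ribosomal protein genes, whose products form the separate ribosome of mitochondria, had a median of -0.02, with 28 (39.4%) above 0. They averaged 8.07, 8.20 and 8.16 in PPVL spleens and 8.19, 8.18 and 8.16 in sham spleens. PPVL rat 1 was the lowest in 26 of the 71. Mrpl35 averaged 8.65 ± 0.11 in PPVL spleens and 8.85 ± 0.07 in sham spleens, a difference of -0.20 (interval -0.42 to 0.02).

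**Figure D5:**
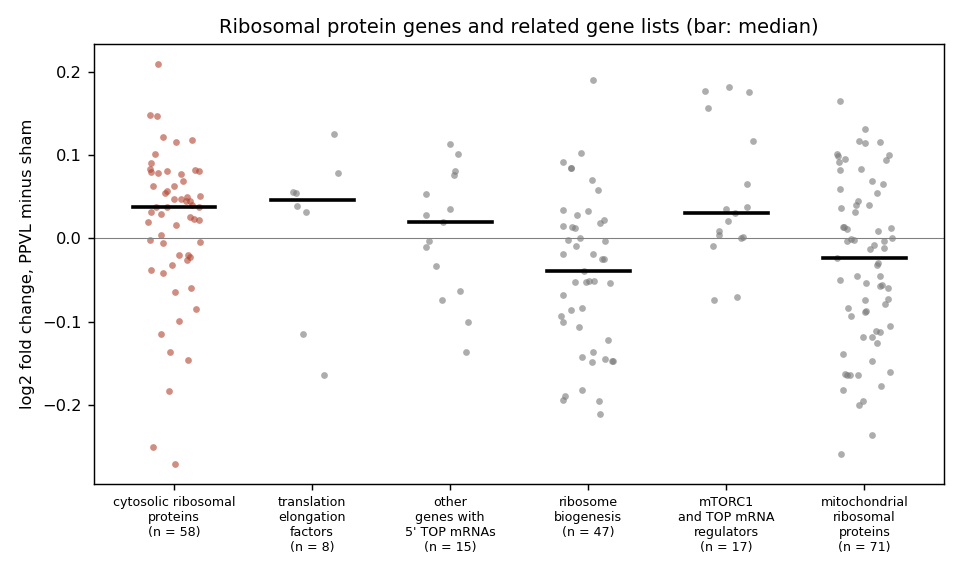
Log2 fold change, PPVL minus sham (y axis), of the 58 ribosomal protein genes (red) and of 5 related gene lists (grey), 1 point per gene with the median as a bar. The medians lie between -0.04 for ribosome biogenesis and 0.05 for elongation factors, and none of the points passed the threshold.

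Near-identical copies limit what a single cluster reports. The rat genome holds many processed copies of ribosomal protein genes, and on this array 45 clusters of pseudogene symbols and 90 of numbered copies were left out, while 32 clusters carried several symbols that name a ribosomal protein. Of the 77 canonical proteins, 22 had no cluster of their own symbol alone, among them Rpl22 and Rpl38. For 10 of the 58 genes the brightest cluster of the protein was listed under another or a joint symbol. For Rpl5 the cluster used was at the 27.6th percentile of all clusters, with values of 4.995, 5.123 and 4.958 in PPVL spleens and 5.105, 4.944 and 4.754 in sham spleens. The cluster of its copy Rpl5l1 had 12.19, 11.94 and 12.17 in PPVL spleens and 11.97, 12.17 and 12.11 in sham spleens. Rps12 had 5.76, 5.75 and 5.88 in PPVL spleens and 5.70, 5.75 and 5.87 in sham spleens, and its copy Rps12l2 had 12.26, 12.28 and 12.40 in PPVL spleens and 12.40, 12.30 and 12.38 in sham spleens. Neither version separated the groups in either gene. The brightness of clusters depends on their probes and does not rank the genes.

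With the brightest cluster of each protein, copies and joint symbols included, 76 proteins could be described. Of these 0 passed the threshold, 51 were above 0, the median was 0.03 and 73 had intervals inside a 1.5-fold change. Rpl15, apart between the groups under its own symbol, differed by -0.0021 (interval -0.20 to 0.20) in the cluster of its copy Rpl15l3. Rpl37a differed by 0.03 (interval -0.17 to 0.22) in its joint cluster. Rps9 differed by -0.17 (interval -0.44 to 0.10) in the cluster of Rps9l1, opposite in sign to its own cluster. Rpl26 likewise differed by 0.10 (interval -0.28 to 0.48) in the cluster of Rpl26-ps13, opposite in sign to its own. Rpl28, named here after its values had been seen, differed by 0.20 (interval -0.20 to 0.60) in the cluster of Rpl28l1 and by -0.10 (interval -0.41 to 0.21) under its own symbol. Of the clusters annotated to Rpl39, named for this reason, 2 held identical values and are not separate measurements.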

How the data were processed

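RNA of 6 spleens was hybridised to 6 Affymetrix arrays. Per the study's methods, the authors ran RMA in Transcriptome Analysis Console and deposited 1 log2 value for each of 36685 transcript clusters, of which 0 were missing. RMA includes quantile normalization, so a shift shared by all genes would not be seen. Arrays have no read depth, and 3 arrays per group limit the precision. Symbols came from the platform annotation, of which 18394 of 18511 clusters with 1 symbol matched the RefSeq gene table (GRCr8); 575 clusters had several symbols and 17599 none. All clusters were fitted without covariates by lmFit and eBayes (limma 3.58.1, R 4.3.3), with Benjamini-Hochberg adjustment over all. The script was tested on simulated data. Replicates are separate rats. Columns of unknown sample: 0.

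Members, gene lists, the rule for named genes and the alternatives were chosen with earlier results of these data known. Named genes are the 5 highest and 5 lowest by log2 fold change, the 5 brightest and 5 dimmest, stalk genes, Rpsa, paralogs, and genes with known extra functions. Of each related list up to 4 genes with the smallest p could be named, and of each marker list up to 2. Promoter letters were read at the first listed start of each gene. Alternatives were the replicate block, each rat left out, a dim filter, named clusters only, a variance trend, a robust prior, array weights, quantile normalization, median centring, mean of clusters, symbols as given, core members and protein-coding members. The brightest cluster per protein and members that are not dim were added after the data had been seen. Protein sequences were not used here.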

Additional observations from a re-analysis of the deposited data

How the results depend on the processing

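None of the named differences passed an adjusted p of 0.05 in limma. The count of ribosomal protein genes past an unadjusted p of 0.05 was 0 under 13 of the 14 alternatives that kept all rats, and 1 with a variance trend, where Rplp2 (0.15) had a p of 0.0424 in limma. Leaving out each rat in turn gave between 0 and 1 (Rpl37a at -0.43 without PPVL rat 2, Rps9 at 0.29 without sham rat 1), and between 0 and 4 of the 158 related genes, the 4 being Deptor, Gnl3, Mrpl47 and Mrps14 without sham rat 2. Over the 58 genes the median stayed above 0 under every alternative run, between 0.0097 (without PPVL rat 3) and 0.0506 (without PPVL rat 2). The share of genes with a pyrimidine run was 66.7% when the run could begin within 10 bases of the start, a wider window by construction.

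Several differences changed sign, and the cause was not tested. Most of them were near 0, but that of Rps16 was -0.27 with all rats and changed sign only without PPVL rat 3. Quantile normalization gave 0.0135 for Rpl21, 0.0196 for Rpl23 and -0.0034 for Rps6, array weights gave 0.0451 for Rpl23 and -0.022 for Rps4y2, and median centring gave 0.0027 for Rpl23. With 1 rat left out, the ranges that crossed 0 were -0.1229 to 0.0152 for Rpl11, -0.0015 to 0.07 for Rpl13a, -0.0479 to 0.0114 for Rpl21, -0.0845 to 0.1001 for Rpl23, -0.0204 to 0.1105 for Rpl34, -0.0184 to 0.0921 for Rpl3l and -0.0114 to 0.1162 for Rplp0. For small subunit genes they were -0.0178 to 0.07 for Rps12, -0.5462 to 0.2409 for Rps16, -0.0707 to 0.1782 for Rps19, -0.0438 to 0.0192 for Rps29, -0.0384 to 0.1976 for Rps3, -0.143 to 0.1446 for Rps4y2 and -0.0526 to 0.0624 for Rps6.

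Rats of the 2 groups share numbers in the labels, and no source says that a number marks a shared day or litter. A further code in the same labels gives PPVL rat 2 another number than sham rat 2, and PPVL rat 3 another than sham rat 3. The deviations of same-numbered rats correlated at -0.13, 0.14 and 0.12 over all clusters, and those of differently numbered rats at between -0.28 and 0.18. Deviations from a mean of 3 rats constrain each other, so these correlations cannot decide pairing. As no source states a pairing, the numbers were not taken to pair rats. With the replicate block, 0 ribosomal protein genes and 0 related genes passed the threshold, and the median was 0.0375. Whole tissue, 3 rats per group and clusters shared by near-identical copies limit these values.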
